A study of Rattus norvegicus with 9 samples.

Results

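The fragments described here are 21 tRNA-derived small RNAs that stand together in the row order of the deposited tables. They were chosen by position and not by level. A pair of different fragments was linked when it stood on consecutive rows, in the same order, at 2 or more places, and the connected set that holds AS-tDR-007579 was taken. That set had 22 fragments out of 530 in the tables. Of these, 1 is on a list of 11 identifiers that the rule leaves out, so 21 remain. The RNA was taken at day 21 from male Sprague-Dawley rats, from the brain region that surrounds the right globus pallidus. In the ICH + BYHWD group (3 libraries), an intracerebral haemorrhage (ICH) was made by injecting 0.5 U of collagenase type VII in 2.5 μl of saline, and Buyang Huanwu Decoction (BYHWD) was given daily into the stomach for 21 days at 4.36 g/kg. The ICH group (3 libraries) had the same haemorrhage without the decoction, and the sham group (3 libraries) had the same operation with saline alone. The labels mention no vehicle by gavage for the ICH and sham groups, and they do not tie a library to a single animal, so the p-values below reflect how far libraries of a group differ, which may be technical.

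tRNA-derived small RNAs are pieces of transfer RNAs. Some are cut from the ends of mature tRNAs or from precursor tRNAs (tRFs). Others (tiRNAs) are made under stress when nucleases such as angiogenin cut in the anticodon loop, and some 5′ tiRNAs are known to repress translation. A single tRNA can give several overlapping fragments, and identical tRNAs are often encoded by several genes. In the tables the fragments carry an identifier alone, without sequence, class or tRNA of origin, so no sequence and no role can be given for any of the 21. With no gene in the tables, the labelled tissue could not be checked against marker genes.

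The 21 fragments fell into 3 blocks of rows. Block A was a run of 13 fragments, 12 of them described here, repeated 4 times in the same order on rows 223 to 274. Block B was a run of 7 fragments repeated 2 times on rows 473 to 486. Block C was a run of 6 fragments that stood at rows 1408 to 1413, again at rows 1440 to 1445, and 2 times in a slightly different form on rows 1693 to 1704, where AS-tDR-008644 took the place of AS-tDR-007636. The blocks were joined by shared members. AS-tDR-009695, AS-tDR-007761, AS-tDR-007763 and AS-tDR-007755 stood in both A and B, and AS-tDR-007636 stood in both A and C. Another 7 fragments were in block A alone, 3 in block B alone and 6 in block C alone. A shorter run on rows 465 to 469 held AS-tDR-007636 and the 4 fragments shared by A and B, and AS-tDR-010004 stood by itself on row 471. Each member stood on 2 to 7 rows with the same values each time, with a median of 4 rows. Over all fragments the median was 2 and the range 1 to 37 rows. The rule itself requires at least 2 rows of a member, which 347 of the 530 fragments had, so this contrast is no finding about the members. The sources used here do not say what fragments on adjoining rows share, and members may overlap in sequence, so they are not independent of each other.

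Library totals ran from 530827 to 1066616 tags, and levels are given as the deposited TPM, in which each count is divided by that total. The lowest value above 0 in a library was 134 to 152 TPM, so a 0 means below that listing minimum. Whether any tags were present at a 0 cannot be told. The scaling of the libraries bears on every fold change below. The TMM factor of edgeR, which corrects for composition, was 0.647 in ICH 2 and 0.856 in ICH 1, against 0.943 to 1.18 in the other 7 libraries. The fit therefore scales ICH 2 up relative to its TPM, and both TPM and fitted fold changes are given. In these tissue samples, fewer cells of a type and less of a fragment per cell cannot be told apart.

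AS-tDR-007579 was by far the most abundant member. It had 16609, 21419 and 16710.1 TPM in the ICH + BYHWD libraries, 16797, 13912 and 21539 TPM in the ICH libraries, and 20821, 17584 and 18172 TPM in the sham libraries. All 3 groups overlapped, with ICH 2 the lowest and ICH 3 the highest library of all. Its mean of 18174 TPM ranked 8 among the 530 fragments, and it made up 41.3 to 51.5% of the tags of the 21 members in a library. AS-tDR-007755, of blocks A and B, was next, with 8689.6, 9940.3 and 6513 TPM in ICH + BYHWD, 8955, 6807 and 6736 TPM in ICH, and 10689.9, 9984 and 9459 TPM in sham. Every ICH library lay below every sham library, while ICH + BYHWD overlapped both. AS-tDR-007761, also of blocks A and B, had 1628, 1919 and 823 TPM in ICH + BYHWD, 1554, 1176 and 899.6 TPM in ICH, and 2064, 2159 and 1613 TPM in sham. AS-tDR-007822, of block B, had 1241, 1544 and 1297 TPM in ICH + BYHWD, 1287, 1068 and 1496 TPM in ICH, and 1905, 1305 and 1309 TPM in sham, with overlap between all groups. The means of the remaining members ran down to 132 TPM for AS-tDR-009151. The median member had a mean of 821 TPM, against 373 TPM over all fragments.

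Together the 21 members held 4.05% ± 0.51 of the tags in ICH + BYHWD, 3.71% ± 0.55 in ICH and 4.40% ± 0.43 in sham (SD, n = 3 each). The libraries held 3.56 to 4.57% in ICH + BYHWD, 3.11 to 4.18% in ICH and 4.09 to 4.89% in sham, so the groups overlapped. The exact (Clopper-Pearson) 95% interval of a single library was at most 0.0534 percentage points to either side, which covers counting error only. Without AS-tDR-007579 the shares were 2.23% ± 0.30 in ICH + BYHWD, 1.97% ± 0.23 in ICH and 2.52% ± 0.27 in sham (SD, n = 3 each). No test was made of these sums.

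Of the 21 members, 17 were above 0 in all 9 libraries, or 81.0%, against 58.7% of all fragments. Among those 17, the coefficient of variation of TPM over the 9 libraries had a median of 21.4%, against 28.1% for the 311 fragments above 0 in all libraries. AS-tDR-008680, of block A, varied least of the 17, at 12.3%, and ranked 3 of the 311 from the steadiest. It had 1155, 977 and 1113 TPM in ICH + BYHWD, 969, 933 and 1085 TPM in ICH, and 810.4, 821 and 972 TPM in sham. AS-tDR-007579 ranked 10, with a coefficient of variation of 14.3%. AS-tDR-010034, of block A, varied most of the 17, at 44.7%, and its highest library was 4.30 times its lowest. It had 1558, 769 and 704 TPM in ICH + BYHWD, 439, 362 and 992 TPM in ICH, and 857, 813 and 588 TPM in sham, so the spread lay within the groups as much as between them.

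Members linked by the rule, which stand side by side, ranged widely in how alike they varied. Over the 9 libraries, the Pearson r of log2 CPM had a median of 0.58 and a range of -0.53 to 0.92 for the 14 linked pairs among the 17 members. It had a median of 0.39 for all 136 pairs of these members, 0.35 for the 67 of these pairs that share a block and 0.42 for the 69 pairs that share none. All 48205 pairs among the 311 fragments had a median of 0.20. These values describe the same 9 libraries and share their depth and composition. The closest pairs came from the fragments that stand in both A and B. AS-tDR-007755 had an r of 0.96 with AS-tDR-007761 and 0.94 with AS-tDR-009695, which ranked 2 and 4 among its 310 possible partners. Without the 2 libraries farthest from the median of AS-tDR-007755, ICH + BYHWD 3 and ICH 3, r was 0.94 and 0.88. AS-tDR-009695 itself had 1111, 1413 and 879 TPM in ICH + BYHWD, 1173, 955 and 860.2 TPM in ICH, and 1299.9, 1169 and 1185 TPM in sham. The adjoining pair AS-tDR-008680 and AS-tDR-009695 had the lowest r of the 14, at -0.53, and -0.54 without the 2 libraries farthest from the median of AS-tDR-008680, sham 1 and ICH + BYHWD 1. This negative r depended on the scaling. With each library centred on its median log2 CPM over the 311 fragments, it was -0.16. Centred in the same way, AS-tDR-007755 had an r of 0.98 with AS-tDR-007761 and 0.96 with AS-tDR-009695.

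A ratio of 2 members in the same library does not depend on the scaling. AS-tDR-007579 was 1.91, 2.15 and 2.57 times AS-tDR-007755 in the ICH + BYHWD libraries, 1.88, 2.04 and 3.20 times in the ICH libraries, and 1.95, 1.76 and 1.92 times in the sham libraries. The groups overlapped, and ICH 3 and ICH + BYHWD 3 stood above the other 7 libraries. In the same 2 libraries AS-tDR-007755 was 7.49 and 7.91 times AS-tDR-007761, against 4.62 to 5.87 times in the others. The ratio of AS-tDR-007755 to AS-tDR-009695 was steadier, at 7.42 ± 0.39 in ICH + BYHWD, 7.53 ± 0.36 in ICH and 8.25 ± 0.28 in sham (SD, n = 3 each). Here sham stood apart, with 7.98 to 8.54 in its libraries, while ICH + BYHWD at 7.04 to 7.82 and ICH at 7.13 to 7.83 overlapped each other. These ratios were picked after their values were seen and were not tested.

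The haemorrhage was compared with sham first. No member passed the edgeR quasi-likelihood test at an adjusted p under 0.05 in either direction, and none of the 455 fragments tested did (0%). DESeq2 was fitted to all 530 fragments. It called 20 of the 530 higher and 8 lower in ICH, and of the 21 members it called 1, AS-tDR-009151, which was lower. All 21 members were among the 455 fragments that edgeR tested. On the TPM scale, 7 of the 21 members had every ICH library below every sham library (33.3%, against 8.35% of all fragments tested), and 0 had every one above (against 4.84%). The 7 were AS-tDR-007755, AS-tDR-007761 and AS-tDR-007763 of blocks A and B, AS-tDR-007760 of block B, and AS-tDR-008644, AS-tDR-009151 and AS-tDR-010072 of block C. Of the 7, 3 have a 0 in an ICH library. Among the 17 members above 0 in all libraries, 4 were lower without overlap (23.5%, against 9.65% of the 311 such fragments) and 0 were higher (against 3.86%). These counts were made on TPM alone, without the TMM factors that scale up ICH 1 and ICH 2. In the TMM fit the log2 fold change was -0.55 (SE 0.23) for AS-tDR-007760 and -0.48 (SE 0.39) for AS-tDR-007761. It was -0.24 (SE 0.26) for AS-tDR-007755 and -0.14 (SE 0.19) for AS-tDR-010072. These 4 do not count as 4 separate observations, as 3 of them varied closely alike. AS-tDR-007755 had an r of 0.96 with AS-tDR-007761 and 0.91 with AS-tDR-007760, and the last 2 had 0.84 with each other. The r of AS-tDR-010072 was lower, at 0.65 with AS-tDR-007755, 0.55 with AS-tDR-007761 and 0.61 with AS-tDR-007760. Mean TPM was lower in ICH for 17 of the 21 members, against 57.8% of all fragments tested, and higher for 4, against 42.2%. The fitted log2 fold change was below 0 for 15, against 51.2%, and above 0 for 6, against 48.8%. The median fitted log2 fold change was -0.15 over the members and -0.02 over all 455 fragments. Over the main fit and 19 alternative settings, the gap between these medians ran from -0.27 to -0.08. Among fragments above 0 in all libraries it was -0.10 in the main fit and ran from -0.22 to 0.003. Without ICH 3 the median of the 17 such members was -0.067, against -0.070 over all such fragments.

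AS-tDR-007760 of block B had 798, 560.1 and 678 TPM in ICH, against 1299.9, 1152 and 891 TPM in sham. The means were 679 ± 119 TPM in ICH, against 1114 ± 207 TPM in sham (SD, n = 3), and the groups did not overlap. The fitted log2 fold change was -0.55 (SE 0.23), with an edgeR p of 0.0407 and an adjusted p of 0.507. AS-tDR-007636, which joins blocks A and C, had 781, 536 and 1082 TPM in ICH, against 1386, 1191 and 987 TPM in sham, with ICH 3 above sham 3. Its log2 fold change was -0.47 (SE 0.18), with an edgeR p of 0.0316 and an adjusted p of 0.507. With AS-tDR-009151, described below, these were the 3 members lower in ICH at an unadjusted p under 0.05, against 17 of the 455 fragments (3.74%), and 0 members were higher, against 24 (5.27%). Leaving out 1 library gave 1 to 3 members lower and 0 to 1 higher, while over all fragments tested it gave 6 to 25 lower and 4 to 66 higher.

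On the higher side, AS-tDR-008680 had the smallest p of any member, with a log2 fold change of 0.36 (SE 0.18), an edgeR p of 0.0832 and an adjusted p of 0.508. Its means were 996 ± 79.8 TPM in ICH, against 868 ± 90.5 TPM in sham (SD, n = 3), and sham 3 lay above 2 of the 3 ICH libraries. The most abundant member, AS-tDR-007579, averaged 17416 ± 3851 TPM in ICH, against 18859 ± 1724 TPM in sham (SD, n = 3). Its log2 fold change was 0.02 (SE 0.18, edgeR adjusted p = 0.981), a fold of 1.01 with a 95% interval of 0.756 to 1.35, and it turned below 0 under other scalings. AS-tDR-007755 averaged 7499.6 ± 1261 TPM in ICH, against 10044 ± 618 TPM in sham (SD, n = 3). After scaling its log2 fold change was -0.24 (SE 0.26, edgeR adjusted p = 0.801), so the difference seen in TPM did not exceed its standard error in the fit.

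Of the members that stand in a library below the listing minimum, AS-tDR-009151 of block C was listed at 0 in all 3 ICH libraries. It had 179, 192 and 197 TPM in ICH + BYHWD and 201, 203 and 213 TPM in sham, all within 1.5 times the lowest value listed in the library concerned. Set against the average lowest listed TPM of the ICH libraries, the ICH + BYHWD mean stood at 1.36 times and the sham mean at 1.48 times, which is as far as the listing minimum lets a fold be stated. In edgeR its unadjusted p was 0.00248 for ICH against sham, with an adjusted p of 0.376. DESeq2 called it lower in ICH (adjusted p = 3.37e-10). With each 0 replaced by the lowest count its library lists, the edgeR log2 fold change was -0.53 and the adjusted p 0.314. Of the other fragments of block C, AS-tDR-010067 and AS-tDR-008644 were also near the listing minimum in 4 libraries each. AS-tDR-010067 averaged 229.7 ± 88.7 TPM in ICH + BYHWD, 235 ± 99.1 in ICH and 343 ± 113 in sham (SD, 3 libraries each). AS-tDR-008644 had 0, 152 and 185 TPM in ICH + BYHWD, 141, 0 and 217 TPM in ICH, and 349, 287 and 232 TPM in sham. Its sham libraries lay above all of the others, but the edgeR adjusted p was 0.872 for ICH against sham and 0.997 for ICH + BYHWD against sham.

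AS-tDR-007763 of blocks A and B stood out in a single library. It had 226, 187 and 159.6 TPM in ICH + BYHWD, 173, 0 and 154 TPM in ICH, and 1541, 245 and 237 TPM in sham. Sham 1, with 1133 tags, was 6.29 times the next library, the largest such ratio among the 481 fragments listed in 2 or more libraries. Its row neighbours AS-tDR-007761 and AS-tDR-007755 had no such value in sham 1. The sham mean was 674 ± 750.3 TPM with sham 1 (SD, n = 3) and 241 ± 5.21 TPM without it (SD, n = 2). Without sham 1 the fitted log2 fold change of ICH against sham was -1.14, against -2.63 with all 9 libraries, and the adjusted edgeR p was 0.976 and 0.537. Both of these values take the 0 in ICH 2 as a count of 0. With sham 1 kept and each 0 replaced by the lowest count its library lists, the change was -2.12 (edgeR adjusted p = 0.314). With sham 1 kept and ICH 2 left out, it was -2.04 (edgeR adjusted p = 0.941).

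AS-tDR-010004 of block A was listed at 0 in sham libraries alone. It had 554, 299.8 and 659 TPM in ICH + BYHWD and 880.4, 1397 and 361 TPM in ICH, while in sham it was listed at 0 in sham 1 and sham 2 and had 718 TPM in sham 3. Sham 3 lay above ICH 3, so the groups overlapped, and the adjusted edgeR p was 0.733 for ICH against sham and 0.997 for ICH + BYHWD against sham. Without sham 3 both sham libraries left are at 0, and edgeR called it higher in ICH (adjusted p = 0.000298) and higher in ICH + BYHWD (adjusted p = 0.0005). No fold is given. The fragments on either side of it in block A, AS-tDR-010034 and AS-tDR-008680, were above 0 in every library.

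The decoction was compared with untreated haemorrhage next. No member passed the edgeR test in either direction, as no fragment of the 455 did (0%). DESeq2 called 4 of 530 fragments higher and 5 lower in ICH + BYHWD. Of the 21 members it called 1, AS-tDR-009151 (higher, adjusted p = 2.27e-09). AS-tDR-009151 had an edgeR p of 0.00269 and an adjusted p of 0.533. It was the single member at an unadjusted p under 0.05 on the higher side, against 20 of 455 fragments (4.4%), and 0 members had one on the lower side, against 10 (2.2%). Groups did not overlap for AS-tDR-009151 and AS-tDR-010072, both of block C and both higher in ICH + BYHWD. That is 2 of 21 members (9.52%), against 11.4% of all fragments tested, and 0 members were lower without overlap, against 1.32%. Among the 17 members above 0 in all libraries the counts were 1 higher (5.88%, against 12.9%) and 0 lower (against 1.29%). AS-tDR-010072 had 470.5, 471 and 386 TPM in ICH + BYHWD, 363, 283 and 324 TPM in ICH, and 432, 380.4 and 384 TPM in sham. Every ICH library lay below all of the others, while ICH + BYHWD and sham overlapped. The means of AS-tDR-010072 were 442 ± 48.8 TPM in ICH + BYHWD and 323 ± 40.1 TPM in ICH (SD, n = 3), and its fitted log2 fold change was 0.13 (SE 0.19, edgeR adjusted p = 0.838).

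The direction of the members in this comparison rested on the scaling. With TMM, the fitted log2 fold change was above 0 for 7 of the 21 members, against 47.9% of all fragments tested, and below 0 for 14, against 52.1%. Mean TPM was higher in ICH + BYHWD for 16, against 60.7%, and lower for 5, against 39.3%. Without scaling, and also with recovered library totals or upper-quartile factors, the fitted change was above 0 for 16 and below 0 for 5. The median over all 455 fragments moved too, to 0.22 without scaling, against -0.09 with TMM. Relative to it the members' median was lower by 0.07 with TMM and higher by 0.03 without. AS-tDR-010045 of block A had the smallest p on the lower side, with 1047, 1247 and 783 TPM in ICH + BYHWD, against 1064, 923 and 1405 TPM in ICH. These groups overlapped, and the log2 fold change was -0.43 (SE 0.21), with an edgeR p of 0.0758 and an adjusted p of 0.533. AS-tDR-007043 of block B had 551, 528 and 823 TPM in ICH + BYHWD, against 391, 261 and 528 TPM in ICH, with ICH 3 level with the lowest ICH + BYHWD library. Its log2 fold change was 0.42 (SE 0.19), with an edgeR p of 0.0566 and an adjusted p of 0.533. For AS-tDR-007579 the log2 fold change was -0.22 (SE 0.18, edgeR adjusted p = 0.624), a fold of 0.857 with a 95% interval of 0.640 to 1.15, and for AS-tDR-007755 it was -0.18 (SE 0.26, edgeR adjusted p = 0.838). Both turned above 0 without scaling.

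The last comparison set the decoction group against sham, and it shares its libraries with both others. Again no member and no fragment of the 455 passed the edgeR test (0%). DESeq2 called 11 of 530 fragments higher and 6 lower, 0 of them members. The fitted log2 fold change was below 0 for 16 of the 21 members, against 43.3% of all fragments tested, and above 0 for 5, against 56.7%, with a median of -0.28 over the members and 0.06 over all fragments. Mean TPM was lower in ICH + BYHWD for 13 members, against 28.6%, and higher for 8, against 71.4%. Without scaling the fitted change was below 0 for 14 of 21, against 31.0%, and the members' median stayed 0.34 below that of all fragments. Over the 19 alternative settings and the main one, the members' median lay 0.23 to 0.40 below the median of all fragments. Among fragments above 0 in all libraries, the gap was -0.29 in the main fit and ran from -0.34 to -0.12. Without sham 1, the median of the 17 such members was 0.0015, against 0.13 over all such fragments. At an unadjusted p under 0.05, 2 members were lower, against 18 of 455 fragments (3.96%), and 0 were higher, against 1 (0.22%). The number of members lower was 0 without sham 1, without sham 2 or without ICH 1, where 2, 3 and 4 fragments in all were lower. It was also 0 without scaling, with recovered library totals or without the low-count filter, where 6, 2 and 7 fragments in all were lower. With upper-quartile factors it was 1, and with RLE factors 2. Without ICH 2 it was 4, among 23 of 473 fragments. For any difference between the 3 groups, 2 members (AS-tDR-007760 and AS-tDR-009151) had an unadjusted edgeR p under 0.05, or 9.52%, against 6.37% of all fragments tested.

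The 2 members were AS-tDR-007760 and AS-tDR-010045. AS-tDR-007760 had 808, 911 and 647 TPM in ICH + BYHWD, against the 3 sham values above, and ICH + BYHWD 2 lay just above sham 3. The log2 fold change was -0.65 (SE 0.23), with an edgeR p of 0.021 and an adjusted p of 0.868. AS-tDR-010045 averaged 1026 ± 233 TPM in ICH + BYHWD and 1381 ± 196 TPM in sham (SD, n = 3), with sham libraries at 1568, 1398 and 1177 TPM, so ICH + BYHWD 2 again overlapped sham 3. Its log2 fold change was -0.58 (SE 0.21), with an edgeR p of 0.0249 and an adjusted p of 0.870. Groups did not overlap for 3 members on the lower side (14.3%, against 3.08% of all fragments tested), namely AS-tDR-007763, AS-tDR-008644 and AS-tDR-009151. AS-tDR-008644 has a 0 in ICH + BYHWD 1, while the 0s of AS-tDR-007763 and AS-tDR-009151 lie in ICH, outside this comparison. These members stood within 1.5 times the listing minimum in 4, 4 and 6 of the 9 libraries. On the higher side the groups did not overlap for AS-tDR-007043 and AS-tDR-008680 (9.52%, against 7.47%). Among the 17 members above 0 in all libraries, 0 were lower without overlap (against 3.22%) and 2 were higher (11.8%, against 8.36%). AS-tDR-007043 averaged 634 ± 164 TPM in ICH + BYHWD and 421 ± 38.2 TPM in sham (SD, n = 3), with sham libraries at 379, 431 and 454 TPM. Its log2 fold change was 0.42 (SE 0.19), with an edgeR p of 0.056 and an adjusted p of 0.997. AS-tDR-008680 averaged 1082 ± 93.1 TPM in ICH + BYHWD and 868 ± 90.5 TPM in sham (SD, n = 3). AS-tDR-007579 had a log2 fold change of -0.20 (SE 0.18, edgeR adjusted p = 0.997), a fold of 0.868 with a 95% interval of 0.648 to 1.16. AS-tDR-007755 had one of -0.41 (SE 0.26, edgeR adjusted p = 0.997).

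The remaining 4 members had overlapping groups in each of the 3 comparisons. AS-tDR-007350 and AS-tDR-007581, of block A, averaged 1059 ± 337 and 802 ± 227 TPM in ICH + BYHWD, 845 ± 259 and 866 ± 304 TPM in ICH, and 973 ± 310.5 and 794 ± 55.2 TPM in sham (SD, n = 3 each). AS-tDR-007350 varied most like AS-tDR-010034, 1 of its neighbours in the row order, with an r of 0.90 over the 9 libraries, which ranked 1 among its 310 possible partners. Without the 2 libraries farthest from the median of AS-tDR-007350, ICH + BYHWD 1 and ICH 2, r was 0.80. Among the partners of AS-tDR-010034, AS-tDR-007350 ranked 12. AS-tDR-008441 and AS-tDR-008669, of block C, averaged 474 ± 74.3 and 319 ± 109.9 TPM in ICH + BYHWD, 407 ± 112 and 303 ± 52.7 TPM in ICH, and 541 ± 66.9 and 279 ± 4.36 TPM in sham (SD, n = 3 each). Among the members, AS-tDR-008441 was most like AS-tDR-007636, the fragment that joins block C to block A, which ranked 3 among its 310 possible partners, with an r of 0.90 over the 9 libraries and 0.68 without the 2 libraries farthest from the median of AS-tDR-007636, ICH 2 and sham 1. Among the members, AS-tDR-008669 was most like AS-tDR-007581, which stands in another block and ranked 4 among its 310 possible partners, with an r of 0.87, and 0.69 without ICH + BYHWD 3 and ICH 2.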

How the data were processed

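Small RNA libraries were made after a pretreatment that removes tRNA modifications, per the labels' protocols. FastQC, cutadapt and Novoalign 2.07.11 and the human build hg19 are listed per the submitters' processing notes. How tags were assigned to fragments, and from which annotation, the sources used here do not say. Each of the 9 deposited tables holds 2122 rows for 530 fragments in 2 deposited value columns: the tag count, which the authors left unnormalized, and a TPM, named so per the file headers. Within a file the deposited TPM is the count divided by 1 library total, with no correction for length. Of each fragment 1 row was kept.

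Counts were tested with edgeR 4.0.16 (R 4.3.3): library sizes summed over listed fragments and scaled by TMM, a filterByExpr filter (minimum count 10, by group), a quasi-likelihood model (robust) over the 9 libraries and an F-test per comparison. Benjamini-Hochberg adjustment covered the 455 fragments tested, at a threshold of 0.05. Standard errors are the size of the log2 fold change over the root of F. Alternatives used DESeq2 1.42.0, limma-voom (limma 3.58.1), other scalings, other treatments of zeros and each library left out. The scripts were tested on simulated counts without a listing minimum, which checks the code and not the calls made here. The fragments, lists and tests were chosen with earlier results of these data known. Fragments were named for the smallest p on each side, the highest mean, the most rows, the largest ratio of highest to lowest value, or a 0. AS-tDR-010072 was named after its values were seen. Libraries are numbered in accession order within a group. Between the 2 most alike libraries the chi-square over its degrees of freedom was 44.4, so no library was treated as a duplicate. These 2 were ICH 1 and sham 3, of different groups. The same measure was 171 between sham 3 and sham 1, 163 between sham 3 and sham 2, and 67.3 between sham 1 and sham 2.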

Additional observations from a re-analysis of the deposited data

How the results depend on the processing

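In all 3 comparisons (ICH against sham, then ICH + BYHWD against ICH, then against sham), edgeR called 0 fragments over all and 0 members in either direction. DESeq2 called 20 higher and 8 lower, 4 and 5, and 11 and 6 over all 530 fragments. Of the 21 members it called 1, AS-tDR-009151, lower in the first comparison and higher in the next. At an unadjusted p under 0.05, which drops the adjustment, there were 24 higher and 17 lower, 20 and 10, and 1 and 18 over all fragments, and 0 and 3, 1 and 0, and 0 and 2 members. With a library left out, the first comparison had 0 to 40 calls higher and 0 to 4 lower, the next had 0, and the last had 0 to 17 higher and 0 lower, with 0 to 1 member higher in the first and last. The highest counts all came without sham 3, where the member was AS-tDR-010004; for the rest of those calls the cause was not tested. RLE, upper-quartile or no scaling, recovered totals, no low-count filter, limma-voom, the 6 libraries compared, only fragments above 0 in all libraries and raised zeros gave 0 calls.

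Of 266 alternative values for 14 fold changes, 242 kept their direction and 24 turned, none past the threshold. For AS-tDR-007579, ICH against sham turned to -0.17 with upper-quartile factors, -0.20 without scaling, -0.11 with recovered totals, -0.0753 without the filter and -0.0888 with each 0 raised to the lowest listed count, and ran from -0.133 to 0.028 with 1 library left out. ICH + BYHWD against ICH turned to 0.0232, 0.11, 0.0672 and, with zeros at the lowest count, 0.0076 for the same fragment, and against sham it ran from -0.26 to 0.0015 with 1 library left out. For AS-tDR-007755, ICH + BYHWD against ICH turned to 0.0941, 0.22, 0.16, 0.082 and 0.10 under those 5 settings, and ran from -0.38 to 0.19 with 1 library left out, also where that library was a sham library, which is not in the comparison.

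As a share of listed tags the members held 5.43% in ICH + BYHWD, 4.80% in ICH and 6.03% in sham. As a share of the library total without the largest member they held 2.23%, 1.97% and 2.52% of tags in the same order. Leaving out AS-tDR-007763 and AS-tDR-010004, a setting chosen after seeing the data, moved no share by more than its SD. With 1 place enough for a link, the set grew to 519 fragments, and with 3 places it was the 12 of block A. Counting either order, or dropping the left-out identifiers first, gave 21. No paired analysis was possible because titles of different groups have no replicate number in common. A 0 means below a listing minimum of 134 to 152 TPM, so a fold for AS-tDR-009151, whose listed values are all near it, can be given only against that minimum.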
